A study of Ovis aries with 12 samples.

Results

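The libraries described here are the untreated starting point of an oestradiol experiment: epithelial cells of the sheep (Ovis aries) oviduct ampulla after starvation and before any hormone. They are the 3 libraries whose labels give 0 h of treatment, of 12 in the series, and were chosen from those labels alone. The study asked how oestradiol changes gene expression in these cells. Per the labels, ampullae were opened lengthwise, the mucosal epithelium was loosened with trypsin and scraped off, and the cells were kept for 12 h in medium free of serum and of phenol red, which can itself act as a weak oestrogen. Total RNA was extracted with Trizol and sequenced on the Illumina system. The cells are primary cultures, not a line, and the labels give neither the breed, age and cycle stage of the ewes nor the number of animals. They do not say either whether libraries 1, 2 and 3 came from separate cultures or animals, so the spread between them may be technical.

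The oviduct epithelium is a layer of secretory and ciliated cells that receives the egg, supports fertilisation and nourishes the early embryo. Secretory cells release the tubal fluid and its glycoproteins, and ciliated cells move the egg along the tube with beating axonemes. Both cell types descend from the Müllerian duct, and their balance in the living tube follows oestradiol and progesterone, which act through nuclear receptors. In culture, oviduct epithelial cells are known to flatten and lose cilia when grown on plastic.

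The authors' table lists 18340 genes, each with a count of fragments and an FPKM value, a count scaled to gene length and library size. Levels below are FPKM unless said otherwise, which lets genes of different length be compared, and values in threes follow the order library 1, 2 and 3. Counts in genes summed to 79387070, 60938655 and 48490974. A gene at 0 counts is limited by that depth to fewer than 3 counts, or 0.0378, 0.0492 and 0.0619 CPM (counts scaled to library size), a limit that covers counting error only. A gene was called expressed at 1 FPKM or more in all 3 libraries, which held for 11328 genes (61.8%). The count of expressed members given for each list below is to be set against that share, and a count near it says nothing particular of the list. A further 5476 genes had counts but fell short of that level, and 1536 (8.38%) had 0 counts in every library. Among expressed genes, 82 averaged 1000 FPKM or more, 934 lay between 100 and 1000, 5796 between 10 and 100, and 4516 under 10.

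Libraries 1 and 2 were closer to each other than either was to library 3. Over the 11328 expressed genes, log2(FPKM + 1) correlated with r = 0.992 between libraries 1 and 2, 0.966 between 1 and 3 and 0.963 between 2 and 3, a description across genes that share the 3 libraries. The number of genes differing by more than 1 on that scale was 72, 499 and 554 for the same comparisons. All 3 comparisons of libraries differed beyond counting error, with a chi-square per degree of freedom of 41.5, 265 and 265, so none is a second deposit of another. Library 3 was also the shallowest. Results that rest on it are given with all 3 values, and its differences are set out at the end. Over all expressed genes outside the small RNA, ribosomal protein and mitochondrial classes, library 3 was above both others in 45.0% and below both in 40.8%. Where these shares are set beside a list below, all expressed genes means those outside these classes.

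Of the 8 genes used to check identity, the keratins and EPCAM were high, and PAX8, ESR1 and PGR were expressed. OVGP1 and FOXJ1, the hallmark genes of secretory and ciliated cells, were not expressed. Keratin 8 (KRT8), the main filament protein of simple epithelium, stood at 4295, 3658 and 5695 FPKM (4549 ± 1042, mean ± SD, n = 3 here and throughout). Its filament partner KRT18 stood at 1086, 843 and 1777 FPKM (1235 ± 484). EPCAM, an adhesion protein on the surface of epithelial cells, stood at 592, 643 and 1066 FPKM (767 ± 260.3). All 3 genes were highest in library 3, and KRT8 alone ranked number 8 of 18340 by mean FPKM. PAX8, a transcription factor that marks Müllerian epithelium and oviduct secretory cells, stood at 35.5, 30.6 and 33 FPKM (33 ± 2.42), with little spread. The oestrogen receptor ESR1 stood at 4.86, 6.02 and 11.4 FPKM (7.44 ± 3.51), with library 3 above the other two. The progesterone receptor PGR stood at 12.1, 9.79 and 11.1 FPKM (11 ± 1.15), which overlaps the range of ESR1. OVGP1, the oviduct-specific glycoprotein that secretory cells release under oestrogen, was under the threshold at 0.304, 0.390 and 0.445 FPKM, from 75, 74 and 67 counts. FOXJ1, the transcription factor that switches on motile cilia, had 12, 3 and 0 counts, or 0.120, 0.0286 and 0 FPKM. Thus 6 of the 8 genes were expressed, and OVGP1 and FOXJ1 were not. In bulk RNA, fewer cells of a type and less RNA per cell cannot be told apart.

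In the coordinates of the authors' table, whose genome build is not given in the sources used here, the gene models of these markers lie as follows. KRT8 is on chromosome 3, 133375727 to 133383019, and KRT18 is its neighbour on chromosome 3, 133329883 to 133333811. EPCAM is on chromosome 3, 76934724 to 76942496, PAX8 on chromosome 3, 59598894 to 59631723, ESR1 on chromosome 8, 75378787 to 75701170 and PGR on chromosome 15, 7462011 to 7513695. OVGP1 is on chromosome 1, 87968079 to 87982027, and FOXJ1 on chromosome 11, 54553607 to 54556561. The counted models of ESR1 (1488 bases) and PGR (1044 bases) are short beside that of PAX8 (6077 bases), and the PGR model lies inside the span of ARHGAP42, which stood at 6.97, 7.22 and 6.72 FPKM. Where models overlap, reads of the pair may have been shared, since the sources used here do not say whether counting used strand.

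General epithelial genes were present almost to the last. Of 30 matched members of that list, 29 were expressed, and 12 averaged 100 FPKM or more. Above KRT18 and EPCAM stood KRT7, a keratin of glandular and ductal epithelium, at 3474, 3528 and 2420.1 FPKM (3141 ± 625), lowest in library 3. E-cadherin (CDH1), which joins neighbouring epithelial cells, stood at 398, 432 and 519 FPKM (449.7 ± 62.4). The serine protease inhibitor SPINT2 was nearly constant at 299.8, 299 and 301 FPKM (299.9 ± 1.19). Of the factors that maintain epithelial identity, EHF stood at 136, 116 and 161 FPKM and the splicing factor ESRP1 at 49.98, 53.3 and 82.4 FPKM. GRHL2 stood at 12.8, 10.6 and 12.1 FPKM, while OVOL1 was the member under the threshold, at 0.850, 0.253 and 0.525 FPKM.

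Müllerian and female tract genes were expressed in 9 of 14 matched cases, close to the 61.8% of all genes, with means up to that of WT1. WT1, a factor of the Müllerian duct and of mesothelium, stood at 34.3, 34.9 and 36.2 FPKM (35.1 ± 0.951), with less spread than any other member expressed. Its range overlaps that of PAX8. SOX17, a factor of the endoderm and of tubal secretory cells, stood at 17.4, 24.5 and 13.5 FPKM (18.4 ± 5.56). EMX2, a homeobox factor needed to form the reproductive tract in mice, differed most between libraries, at 7.87, 15.9 and 29.2 FPKM (17.7 ± 10.8). PAX2, a relative of PAX8, stood at 8.05, 9.34 and 4.61 FPKM (7.33 ± 2.45), and the signal WNT7A at 6.51, 2.71 and 11.5 FPKM (6.92 ± 4.42). MSX1 stood at 5.51, 5.97 and 3.65 FPKM, and MSX2 straddled the threshold at 0.783, 1.13 and 1.01 FPKM. LHX1 had 8, 0 and 0 counts.

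HOX genes, which mark position along the body axis, were unevenly expressed across the clusters. Of the HOXB genes, 8 of 9 were expressed, led by HOXB6 at 14.5, 17.8 and 16.6 FPKM (16.3 ± 1.68), HOXB4 at 15.4, 14.7 and 17.8 FPKM and HOXB9 at 12.1, 11.7 and 13.3 FPKM. Of the HOXA genes, 4 of 7 were expressed, among them the anterior members HOXA3, HOXA4 and HOXA2. HOXA3 led them at 19.8, 20.7 and 10.4 FPKM. HOXA9, which marks the oviduct segment of the mouse Müllerian duct, had 8, 0 and 0 counts, and HOXA10, a factor of the uterus, had 0 counts in all 3 libraries, under a limit of 0.00827, 0.0108 and 0.0136 FPKM. Of the HOXC genes, 2 of 5 were expressed, and of the HOXD genes 0 of 2.

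Genes for secreted products of the tube ranged from the highest level of any gene to near 0. Of 20 matched members, 14 were expressed. SPP1, the secreted adhesive protein osteopontin, is the most abundant transcript of all by FPKM and is described with the abundant genes. GPX3, the secreted glutathione peroxidase, stood at 1669.5, 1626 and 1076 FPKM (1457 ± 331), lowest in library 3. PLAT, the tissue plasminogen activator, stood at 319, 293 and 419 FPKM (343 ± 66.5). MUC1, a mucin of the apical membrane, was even at 224, 244 and 245 FPKM (238 ± 11.9), and the secreted inhibitor WFDC2 likewise at 223, 212 and 253 FPKM (229 ± 21.3). The trefoil peptide TFF3 stood at 177, 157 and 302 FPKM (212 ± 78.7), and the leukocyte protease inhibitor SLPI at 29.6, 37.9 and 5.67 FPKM (24.4 ± 16.7), with library 3 high for TFF3 and low for SLPI. Complement C3 stood at 4.98, 4.38 and 8.28 FPKM. Against these, PIGR, which carries immunoglobulin A across the epithelium, had 5, 4 and 0 counts. The iron-binding LTF stood at 0.942, 0.610 and 1.14 FPKM, and LCN2 at 0.732, 0.660 and 3.00 FPKM, above 1 in library 3 only. CRISP3 had 0, 0 and 22 counts and MSMB 0, 4 and 0 counts.

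Genes of motile cilia were largely below the threshold: 6 of 35 matched members were expressed, against 61.8% of all genes in the table. None of the 35 had 0 counts in every library. The highest was TPPP3, a tubulin-binding protein, at 61.8, 41.9 and 25.5 FPKM (43 ± 18.2). The radial spoke gene RSPH1 stood at 17, 12.4 and 11.2 FPKM (13.6 ± 3.06), and the tektin TEKT2 at 7.86, 8.22 and 4.51 FPKM. ZMYND10, which helps assemble dynein arms, stood at 4.47, 4.45 and 2.85 FPKM, and DEUP1, which makes the centrioles of multiciliated cells, at 2.45, 3.09 and 1.61 FPKM. DNAH11, an outer arm dynein, stood at 1.28, 1.02 and 1.23 FPKM. Of these 6, library 3 was below both others in 5, against 40.8% of all expressed genes. The switches of multiciliation were lower still, with MCIDAS at 1.11, 0.871 and 1.13 FPKM and GMNC at 12, 0 and 0 counts. The structural dynein genes DNAI1 and DNAH5 stood at 0.968, 0.466 and 0.457 FPKM and 0, 0 and 0.00556 FPKM. The summed level of all 35 genes was 101, 76.6 and 51.5 FPKM.

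Basal and squamous epithelial genes were mixed: 15 of 21 matched members were expressed. Chains of the laminin that anchors epithelia to the basement membrane were among the highest, with LAMB3 at 328, 282 and 229 FPKM and LAMA3 at 257, 247 and 301 FPKM. Their receptor chain ITGB4 stood at 107, 101 and 104 FPKM (104 ± 3.29). The basal keratins KRT5 and KRT17 stood at 31.6, 33.6 and 108 FPKM and 44, 52.8 and 48.6 FPKM, with KRT5 highest in library 3. KRT14, the usual partner of KRT5, was near the threshold at 1.21, 1.09 and 1.24 FPKM. TP63, the factor that defines basal cells, had 54, 20 and 0 counts, and involucrin (IVL), a product of squamous differentiation, 10, 0 and 0 counts.

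Markers of the mesothelium, which covers the outside of the tube, were expressed in 6 of 10 matched cases, of which WT1 is shared with the Müllerian list and MSLN with the secretory one. PDPN, a surface mucoprotein of mesothelium and other flat cells, stood at 559, 499.9 and 1475 FPKM (845 ± 547), and without library 3 its mean was 529 FPKM. MSLN stood at 131, 127 and 91.8 FPKM (117 ± 21.5). GATA6, BNC1 and LRRN4 stood at 5.26, 4.91 and 3.26, at 3.24, 2.92 and 2.21 and at 1.61, 1.77 and 5.23 FPKM, and HAS1 straddled the threshold at 1.12, 0.689 and 0.922 FPKM. UPK3B, another marker, had 52, 22 and 0 counts.

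Stromal, muscle, vascular and blood cell genes gave low counts of expressed members, with some of their general genes high. Of 26 fibroblast genes, 10 were expressed. FN1 and VIM, which stressed and cultured epithelia also make, stood at 7549.6, 7896 and 4427 and 1326, 1615 and 870.2 FPKM. The collagens that fibroblasts produce in bulk were far lower, with COL1A1 at 9.59, 7.99 and 1.65 FPKM (6.41 ± 4.20), COL3A1 at 2.87, 4.43 and 0.590 FPKM and COL1A2 at 3.70, 3.29 and 0.836 FPKM. The fibroblast receptor PDGFRA stood at 0.280, 0.179 and 0.312 FPKM, LUM at 0.614, 0.910 and 0.483 FPKM, and DPT had 0 counts. The summed level of the list, 9336, 9947 and 5737 FPKM, was mostly FN1 and VIM.

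Of 16 smooth muscle and pericyte genes, 7 were expressed, and library 3 was below both others in all 7, against 40.8% of all expressed genes. TAGLN, an actin-binding protein of smooth muscle and of spreading cells, stood at 1053, 1327 and 256 FPKM (879 ± 556). Its gene model overlaps PCSK7, which stood at 105, 127 and 29.98 FPKM and was low in the same library. CNN1 stood at 22.6, 44.3 and 3.63 FPKM (mean 13.1 without library 2), ACTA2 at 10.3, 14 and 5.39 FPKM and CALD1 at 191, 214 and 146 FPKM. MYH11, the smooth muscle myosin, was below the threshold at 0.702, 0.709 and 0.636 FPKM. DES, RGS5 and KCNJ8 had 0 counts in all 3 libraries, for DES under a limit of 0.0177, 0.0231 and 0.0292 FPKM. Their summed level was 1294, 1619 and 424 FPKM.

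Of 14 endothelial genes, 4 were expressed at low level. VWF, the clotting factor carrier, stood at 9.84, 9.97 and 7.36 FPKM (9.06 ± 1.47), the cadherin CDH5 at 7.15, 8.14 and 4.12 FPKM (6.47 ± 2.09), EMCN at 7.18, 7.46 and 3.43 FPKM and the VEGF receptor FLT1 at 2.97, 2.51 and 3.29 FPKM. PECAM1 and TEK, both defining genes of endothelium, had 43, 12 and 0 and 0, 0 and 12 counts. Summed, the list stood at 30.4, 32.6 and 19.3 FPKM.

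Of 22 leukocyte genes, 5 were expressed. CD79A, part of the B cell receptor, stood at 0.688, 0.281 and 0.463 FPKM, and PTPRC, carried by all nucleated blood cells, at 0.118, 0.121 and 0 FPKM. CD3E, CD3G and ITGAM had 0 counts. CD68 and CD14, which macrophages carry but other cells also make, stood at 14.1, 16.8 and 8.60 and 12, 9.71 and 16.2 FPKM. JCHAIN, which joins immunoglobulin A and M, stood at 2.44, 3.11 and 3.77 FPKM. Of 6 erythroid and platelet genes none was expressed (1 without library 3), with HBQ1 highest at 1.10, 1.58 and 0 FPKM and AHSP and EPOR at 0 counts. Of 11 adipocyte, neuronal and glial genes, 2 were expressed (4 without library 3), namely UCHL1 at 74, 63.1 and 23.6 FPKM and S100B at 40.1, 36.9 and 44.3 FPKM, and ADIPOQ, STMN2 and SOX10 had 0 counts. The part that other cell types play in any level given here was not tested.

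**Figure D1:**
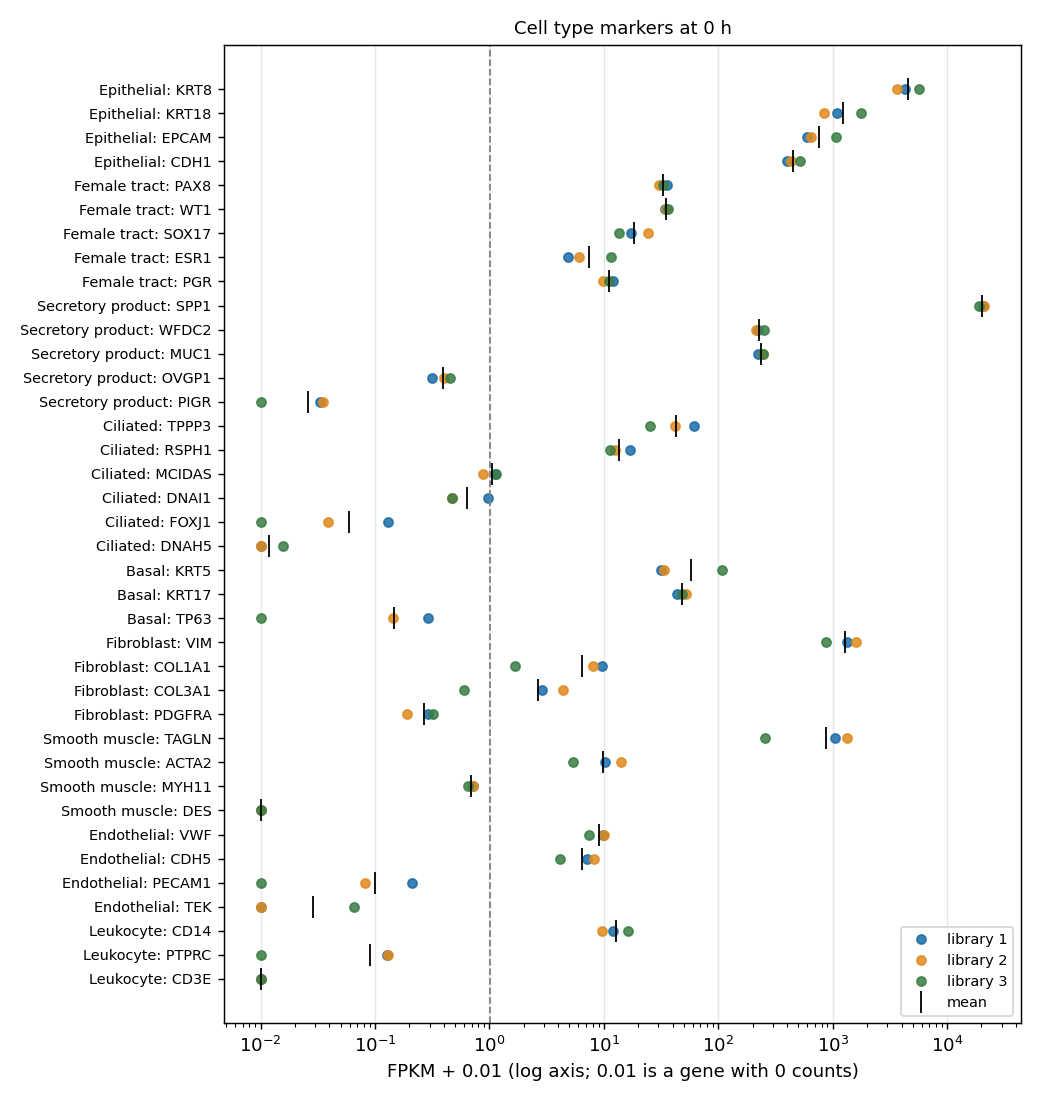
Levels of marker genes in the 3 libraries at 0 h, as FPKM + 0.01 on a log axis, with 1 row per gene grouped by the cell type it marks. Points are libraries, the bar is their mean and the dashed line stands at 1 FPKM; KRT8 lies above 3600 in every library and FOXJ1 below 1.

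The most abundant messages were those of a secreted matrix protein, the cytoskeleton and calcium-binding membrane proteins. SPP1, on chromosome 6, 36651734 to 36658288, stood at 20618, 21170.4 and 19050.1 FPKM (20279.5 ± 1099.98), 3.06 times the next nuclear gene by mean, and its libraries did not overlap those of any other nuclear gene. FN1, the matrix protein fibronectin, came next at 7549.6, 7896 and 4427 FPKM (6624 ± 1911), with library 3 well below. B2M, the light chain of class I histocompatibility molecules, stood at 5104, 5926 and 6684 FPKM (5905 ± 791), and TGFBI, a secreted matrix protein, at 5486, 5259 and 5077 FPKM (5274 ± 205). FN1, B2M, TGFBI and ANXA2 overlap in range, so their order is not fixed by 3 libraries. The 30 genes that led once mitochondrial, ribosomal protein and small RNA genes were set aside had means down to 1721 FPKM, that of CRABP2, a carrier of retinoic acid.

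Several families recur among these 30. Annexins, which bind membranes when calcium rises, were led by ANXA2 at 4994, 5402 and 5258 FPKM (5218 ± 207), with ANXA1 at 2476, 2884 and 2542 FPKM and a gene described as annexin A8 (ENSOARG00000000912) at 3848, 3913 and 3799 FPKM. Their S100 partners included S100A10, which binds ANXA2, at 2468, 2446 and 2684 FPKM and S100A11, which binds ANXA1, at 2047, 2011 and 1438 FPKM. S100A2, an S100 protein of stratified and basal epithelium, stood at 3609.7, 3409 and 3691 FPKM (3569.8 ± 145). Among all genes known by symbol, 12 of 15 S100 genes and 8 of 10 annexin genes were expressed.

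The actin system filled another group. ACTG1 (gamma actin) stood at 4239, 4712 and 3382 FPKM (4111 ± 674), tropomyosin TPM1 at 1994, 2119 and 2023 FPKM, the actin-severing cofilin CFL1 at 2000.4, 2086 and 1591 FPKM and the myosin light chain MYL6 at 1624, 1776 and 1809 FPKM. A gene described as thymosin beta-4, which holds actin monomers, stood at 3242, 3177 and 2159 FPKM. Reads of actin genes may have been split with near-identical copies.

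Secreted regulators were the third group. CST6, an inhibitor of cysteine proteases, stood at 4877, 4474 and 2937 FPKM (4096 ± 1024). IGFBP3 and IGFBP2, which bind insulin-like growth factors, stood at 4455, 4254 and 3430.04 FPKM (4046 ± 543) and 2290.1, 2819 and 1529 FPKM (2213 ± 649). The chemokine CCL2, which attracts monocytes, stood at 2735, 1903 and 1476 FPKM (2038 ± 640.3), highest in library 1. All 4 were lowest in library 3.

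Iron storage and housekeeping completed the 30. FTH1, the ferritin heavy chain, stood at 3805, 4233 and 2196 FPKM (3412 ± 1074), and a further gene described as ferritin heavy chain (ENSOARG00000017679) at 3839.9, 4152 and 1950.2 FPKM (3314 ± 1191). Both were low in library 3, and reads of the copies may have been split. GAPDH, a glycolytic enzyme, was even at 1991, 1913 and 2212 FPKM (2039 ± 155), and TM4SF1, a surface protein of spreading cells, stood at 1581, 1599.5 and 2368 FPKM (1849.7 ± 449). Of the 30, 24 carry a symbol. ENSOARG00000005798 and ENSOARG00000025366, with neither symbol nor description, stood at 4125, 4043 and 3867 and 2149, 2182 and 2409 FPKM. Library 3 was below both others for 18 of the 30, above both for 9 and between them for 3, against 40.8% below and 45.0% above over all expressed genes.

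**Figure D2:**
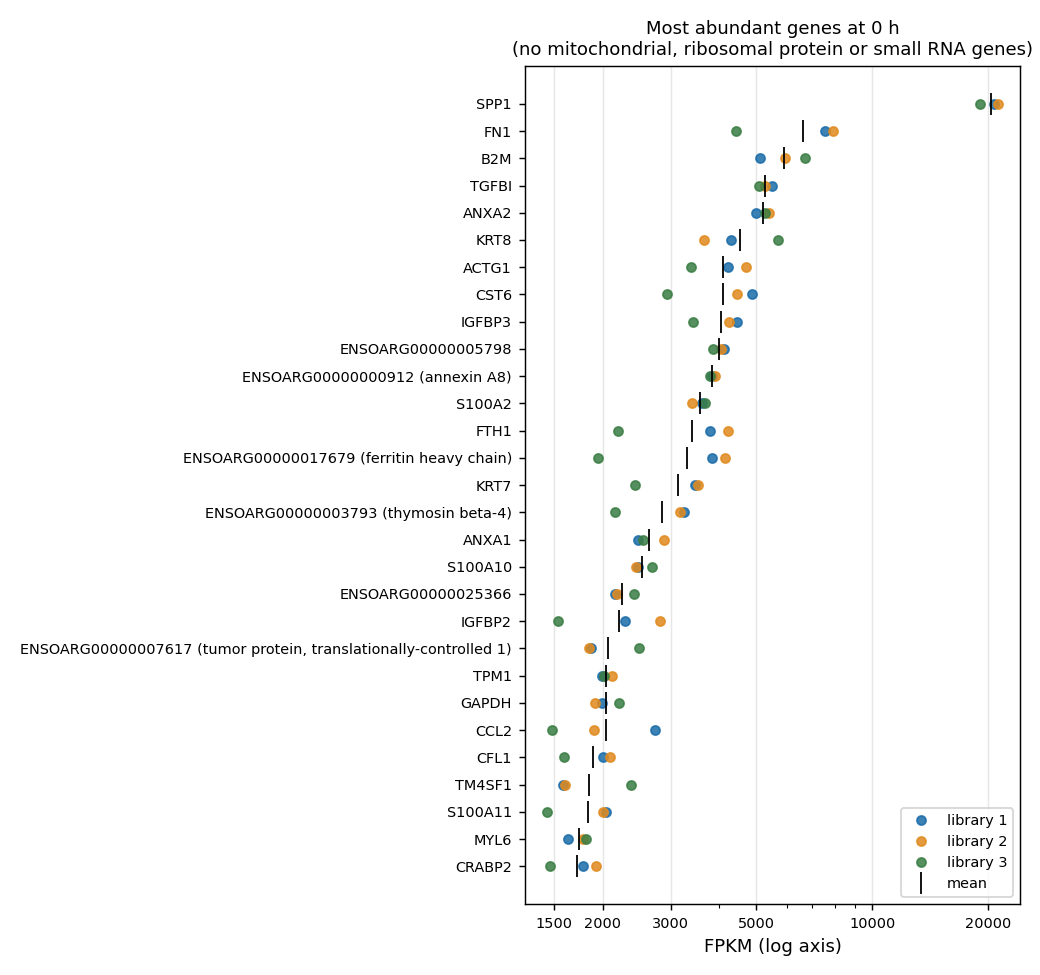
FPKM in each of the 3 libraries at 0 h on a log axis for 29 of the 30 genes with the highest mean, leaving out mitochondrially encoded, ribosomal protein and small RNA genes. Points are libraries and bars their mean; SPP1 stands apart with a mean of 20280 and the last gene, CRABP2, averages 1721.

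The RNA was spread over many genes. In share of counts, the gene with most counts in a library took 5.30% ± 1.54, the first 10 genes 14.2% ± 1.56, the first 100 genes 32.3% ± 1.68 and the first 1000 genes 63.5% ± 0.542. The 37 mitochondrially encoded genes took 5.14% ± 0.436 and were all expressed, led by COX1, a subunit of cytochrome oxidase, at 7301, 7276 and 9659 FPKM (8079 ± 1369) and CYTB at 5938, 5866 and 6609 FPKM. Genes for cytosolic ribosomal proteins took 3.59% ± 0.283, with 121 of 130 expressed and RPLP1 highest at 2355, 2499 and 2582 FPKM. Small RNA genes took 0.0642% ± 0.0215, with 192 of 1036 expressed. The small RNA share was 0.0394% in library 3 and 0.0766% in each of libraries 1 and 2.

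Oestradiol and progesterone act through nuclear receptors, of which ESR1 averaged 7.44 FPKM and PGR 11 FPKM before treatment. Of 10 steroid hormone receptor genes matched, 6 were expressed. PGRMC2, a membrane-associated progesterone-binding protein, was the highest at 62.8, 64.8 and 60.7 FPKM (62.8 ± 2.07). The glucocorticoid receptor NR3C1 followed at 30.5, 26.6 and 30.6 FPKM (29.2 ± 2.26), below PGRMC2 and above the rest in every library. PAQR8, a membrane progestin receptor, stood at 16, 20.6 and 11 FPKM (15.9 ± 4.80) and PAQR5, another, at 5.10, 3.60 and 10.7 FPKM (6.46 ± 3.74). PAQR8, PGR, ESR1 and PAQR5 each overlap the next in this order. ESR1 thus ranked number 7776 and PGR number 6518 of 18340 genes by mean FPKM.

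The second nuclear oestrogen receptor, ESR2, had 9, 0 and 0 counts, or 0.0550, 0 and 0 FPKM. The mineralocorticoid receptor NR3C2 stood at 0.0831, 0.124 and 0 FPKM. PAQR7 stood at 0.0986, 0.0644 and 0 FPKM. ESR1 was above ESR2 in each library.

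Proteins that fold, chaperone or work with steroid receptors were expressed in 27 of 31 matched cases. The chaperones HSP90AB1 and HSP90AA1, which hold unliganded receptors, stood at 775, 816 and 855 FPKM (816 ± 39.9) and 755, 779 and 908 FPKM (814 ± 82.2), and their cochaperone PTGES3 (p23) at 143, 162 and 214 FPKM. FKBP4 and FKBP5, which join the same complex, stood at 38.8, 38.4 and 47.4 and 30.5, 35.9 and 31 FPKM. Among coactivators, NCOA3 stood at 13.6, 14.8 and 13.1 FPKM, NCOA1 at 5.64, 5.66 and 8.49 FPKM and NCOA2 at 3.97, 4.21 and 4.19 FPKM. The corepressors NRIP1 and NCOR1 stood at 20.7, 24.3 and 25.5 and 19.5, 19.8 and 22.7 FPKM. The pioneer factors that open chromatin for ESR1 in other epithelia were low, with FOXA1 at 4.58, 4.48 and 2.64 FPKM and GATA3 at 2.08, 1.87 and 3.45 FPKM, and FOXA2 had 0 counts. The aromatase gene, listed as CYP19, which makes oestradiol from androgen, also had 0 counts. HSD17B10 and HSD17B12, from the family that interconverts steroids and other substrates, stood at 68.2, 70.3 and 67.8 and 49.2, 53.3 and 70.2 FPKM.

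Of 33 other nuclear receptors, 19 were expressed. The retinoic acid receptor RARA led at 37.1, 41.6 and 30.9 FPKM (36.5 ± 5.34), though its model overlaps TOP2A. NR2C1 stood at 28.7, 28.6 and 20.5 FPKM, PPARD at 13.6, 12.4 and 16 FPKM and the vitamin D receptor VDR at 13, 11.5 and 7.95 FPKM. RORB, NR1I2 and NR5A2 had 0 counts.

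Of 38 receptor tyrosine kinase genes, 23 were expressed. DDR1, a collagen receptor, was the highest at 108, 107 and 96.5 FPKM (104 ± 6.48), above the ephrin receptors EPHB4 at 63.4, 61.4 and 58.5 FPKM and EPHA2 at 61.5, 64 and 54.2 FPKM. RYK, a Wnt co-receptor, stood at 52.8, 53.8 and 66.6 FPKM. In the EGF receptor family, ERBB3 stood at 39, 40.9 and 61.9 FPKM, ERBB2 at 32.6, 32.3 and 40.3 FPKM and EGFR at 26.9, 27.4 and 36.4 FPKM, each highest in library 3, while ERBB4 stood at 0, 0.0496 and 0.0422 FPKM. The hepatocyte growth factor receptor MET stood at 27.6, 30.3 and 37.2 FPKM, IGF1R at 16.5, 16.4 and 19.2 FPKM and the insulin receptor INSR at 3.39, 3.79 and 4.98 FPKM. Receptors of stromal and blood cells, PDGFRA, PDGFRB, KIT and CSF1R, were below the threshold, and ALK had 0 counts.

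Ligands for the EGF receptor family were high: AREG (amphiregulin) stood at 234, 201 and 231 FPKM (222 ± 18.5), EREG at 99.6, 81.1 and 117 FPKM (99.2 ± 17.9) and HBEGF at 53.9, 54.4 and 50.4 FPKM (52.9 ± 2.16). TGFA stood at 21.5, 15.8 and 15.1 FPKM. LIF, a cytokine of implantation, stood at 259, 234 and 251 FPKM (248 ± 12.7), even across libraries. Its receptor LIFR stood at 21.5, 17.3 and 51 FPKM and the shared signal chain IL6ST at 39.2, 37.9 and 26.3 FPKM. IGF2 and CSF3 had 0 counts, and HGF had 6, 0 and 0 counts.

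Of 48 cytokine, chemokine and growth factor genes matched, 34 were expressed, and in 21 of these library 3 was below both others, against 40.8% of all expressed genes. After CCL2 the highest was CXCL8, which attracts neutrophils, at 1242, 884 and 288 FPKM (805 ± 482). CSF2 stood at 216, 203 and 41 FPKM (154 ± 97.6) and CCL20 at 184, 71.6 and 154 FPKM (136 ± 58.2). IL33, an alarm signal held in epithelial nuclei, stood at 101, 92.2 and 143 FPKM (112 ± 27) and was highest in library 3. The inflammatory cytokines differed in level: IL1A stood at 23.9, 20.8 and 16.8 FPKM and IL18 at 5.50, 7.47 and 4.08 FPKM, both expressed, while TNF, IL6 and IL1B were not, at 0.747, 2.16 and 0.554, at 0.553, 0.534 and 0 and at 0.0897, 0.130 and 0 FPKM. INHBA, the activin chain, stood at 162, 127 and 191 FPKM, and TGFB3 at 148, 168 and 80.8 FPKM, above TGFB1 at 46, 42.2 and 25.1 FPKM and TGFB2 at 17.4, 20.7 and 14.4 FPKM.

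Receptors for cytokines were expressed in 24 of 36 matched cases. TNFRSF12A, the receptor for TWEAK, was the highest at 482, 492 and 312 FPKM (429 ± 101), and TNFRSF1A, the main receptor for tumour necrosis factor, stood at 116, 117 and 94.6 FPKM (109 ± 12.6). The interferon receptor chains IFNGR2 and IFNAR1 stood at 64.9, 65.6 and 57.2 and 58.3, 58 and 42.8 FPKM, and IFNAR2, the other chain of the type I receptor through which the ovine embryo signal interferon tau acts, at 5.36, 6.95 and 4.57 FPKM. IL18R1 stood at 84.9, 70.3 and 20.7 FPKM, lowest in library 3. PRLR, the prolactin receptor, IL20RB and EPOR had 0 counts. Of 12 chemokine receptors, 3 were expressed. CXCR4, the receptor of CXCL12, stood at 71.5, 83.7 and 63.2 FPKM (72.8 ± 10.3), ACKR3, which binds the same ligand, at 46.7, 38.4 and 13.8 FPKM (33 ± 17.1), and ACKR4 at 1.26, 2.65 and 3.23 FPKM. CCR4 and CCR8 had 0 counts.

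Among 35 receptors for prostaglandins, adrenergic and other tubal signals, 12 were expressed, 16 were below the threshold and 7 had 0 counts. RXFP2, the receptor for insulin-like peptide 3, known mainly from testis descent and, in sheep, from horn growth, was the highest at 295, 457 and 510.1 FPKM (420.4 ± 112), rank 227 of 18340. Its model of 5805 bases overlaps ENSOARG00000011616, which has no symbol and stood at 287, 255 and 299.9 FPKM, so reads may have been shared. The protease-activated receptor F2RL1 stood at 101, 96.1 and 64.9 FPKM (87.2 ± 19.4). The ATP-gated channel P2RX4 stood at 20.6, 19.6 and 15.8 FPKM. Of the prostaglandin E receptors, PTGER2 stood at 11.2, 10.2 and 25.6 FPKM and PTGER4 at 4.03, 5.61 and 2.74 FPKM. The prostaglandin F receptor PTGFR, the oxytocin receptor OXTR, ADRA1A, ADRA2A, TBXA2R, GNRHR and S1PR3 had 0 counts, for PTGFR under a limit of 0.0303, 0.0396 and 0.0500 FPKM and for OXTR of 0.0317, 0.0414 and 0.0523 FPKM.

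Of 12 matched genes of prostaglandin synthesis 8 were expressed, close to the 61.8% of all genes. PTGS2, the inducible cyclooxygenase, stood at 960.4, 736 and 1277 FPKM (991 ± 272), against 21.4, 13.3 and 31.4 FPKM for the constitutive PTGS1. PLA2G4A, which frees arachidonic acid, stood at 30.3, 24.5 and 33.2 FPKM, the prostaglandin E synthases PTGES and PTGES2 at 17.5, 16.6 and 7.92 and 13.8, 14 and 19.9 FPKM, and AKR1B1, which can make prostaglandin F2 alpha in ruminant endometrium, at 101, 94.8 and 65.1 FPKM. HPGD, the enzyme that breaks prostaglandins down, stood at 0.0341, 0.0714 and 0.449 FPKM, and the prostacyclin synthase PTGIS had 0 counts.

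**Figure D3:**
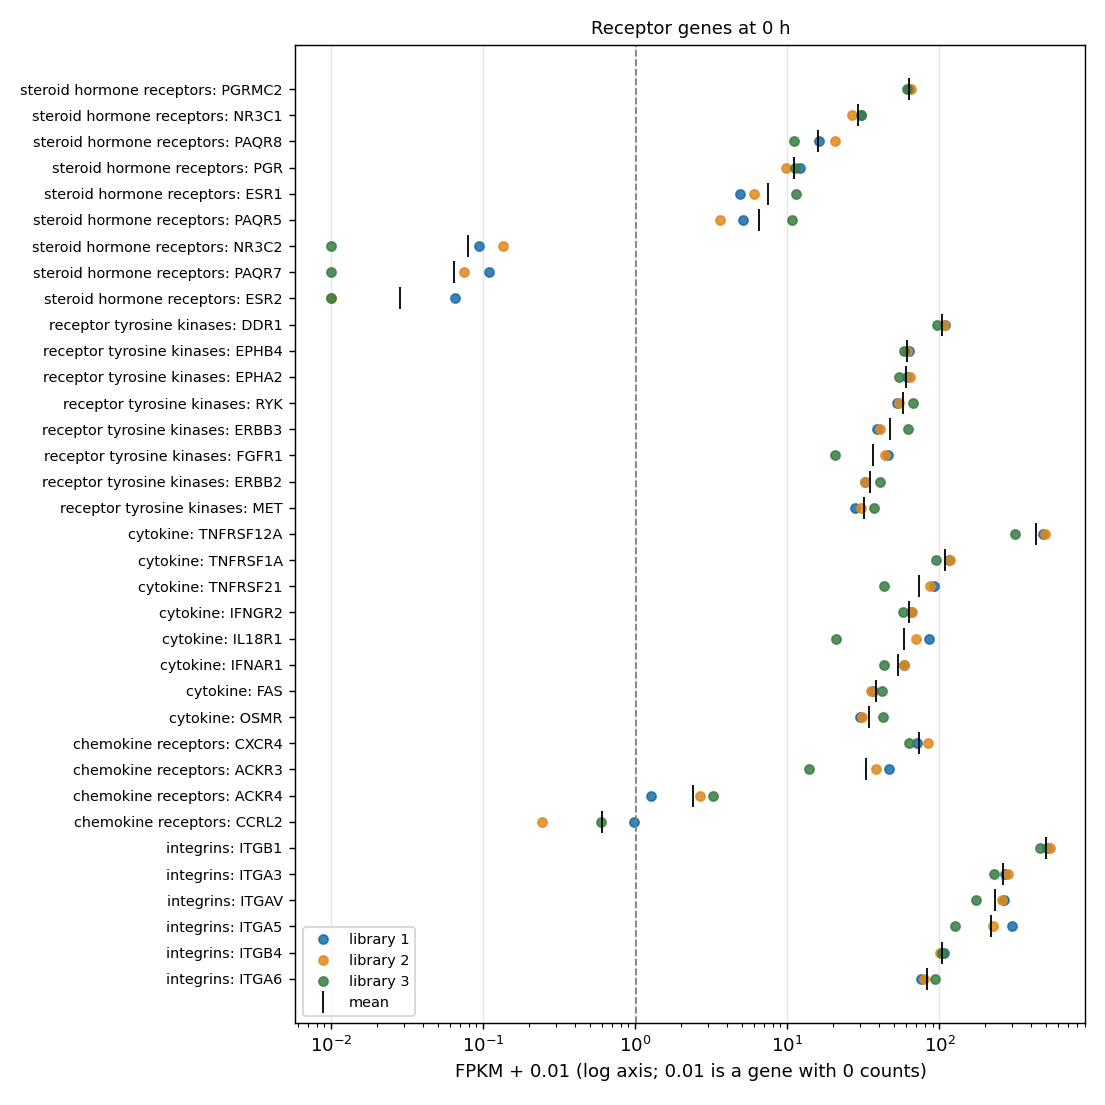
Levels of receptor genes in the 3 libraries at 0 h as FPKM + 0.01 on a log axis, grouped by receptor class. Points are libraries, bars their mean and the dashed line 1 FPKM; PGRMC2 and NR3C1 lead the steroid receptors, and ESR2 had counts in library 1 only.

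Receptors of the TGF-beta family were expressed in 10 of 14 cases, with TGFBR1 at 51, 48.3 and 28.3 FPKM, ACVR1 at 25.7, 23.8 and 28.9 FPKM and TGFBR2 at 24.5, 25.5 and 20.8 FPKM. AMHR2, the receptor by which anti-Müllerian hormone removes the duct in males, stood at 0.144, 0.328 and 0.0979 FPKM. Of 23 Wnt, Notch and Hedgehog receptor genes, 13 were expressed, led by the Notch ligand JAG1 at 93, 83.2 and 50.02 FPKM and LGR4, a receptor for R-spondins, at 29.5, 29.9 and 30.6 FPKM. NOTCH2 stood at 28.8, 28.8 and 20.1 FPKM, while NOTCH1 stood at 1.78, 2.01 and 0.515 FPKM and LGR5, a stem cell marker, at 0.618, 0.958 and 5.05 FPKM. Innate sensors were expressed in 14 of 21 cases. The adaptor MYD88 stood at 24.5, 28.3 and 25.2 FPKM and the lipopolysaccharide sensor TLR4 at 16.6, 15.1 and 24.4 FPKM, with its partners LY96 at 20.3, 25.1 and 13.6 FPKM and CD14 as given above. TLR3 and TLR2 stood at 6.97, 8.73 and 5.48 and 6.65, 6.27 and 3.69 FPKM, and TLR5, the flagellin sensor, at 2.34, 2.93 and 10.7 FPKM, highest in library 3.

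Genes for cell junctions were mostly expressed. Of 28 tight and adherens junction genes, 24 were expressed, and in 18 of these library 3 was above both others, against 45.0% of all expressed genes. Alpha-catenin (CTNNA1) stood at 461, 490.1 and 471 FPKM (474 ± 14.6) and beta-catenin (CTNNB1) at 311, 307 and 331 FPKM (316 ± 12.8). Among claudins, which set the tightness of the junction, CLDN7 stood at 314, 309.8 and 367 FPKM, CLDN1 at 241, 218 and 422 FPKM, CLDN6 at 171, 165 and 206 FPKM and CLDN4 at 143, 189 and 92.2 FPKM. CLDN2, a claudin of leaky epithelia, had 0 counts, CLDN10 had 87, 160 and 13 counts, and TJP1 and OCLN stood at 75.1, 74.2 and 85.1 and 37.1, 39.97 and 45.1 FPKM. Of connexins, which form gap junctions, 7 of 14 were expressed, led by GJA1 at 110.2, 121 and 125 FPKM.

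Of 23 integrin genes, 14 were expressed. The common beta chain ITGB1 was the highest at 509, 529.7 and 457 FPKM (499 ± 37.7), with ITGA3 at 271, 280.3 and 228 FPKM, ITGAV at 266, 256 and 173 FPKM and ITGA5, the fibronectin receptor chain, at 301, 227 and 127 FPKM. ITGAV and ITGB1 serve as receptors of osteopontin among other ligands, and ITGB3 and ITGB6 stood at 46.3, 52.3 and 24.3 and 84.1, 86.1 and 49.1 FPKM. ITGA4, ITGAM, ITGA8 and ITGA11, chains of blood and mesenchymal cells, had 0 counts. In 9 of the 14, library 3 was below both others, against 40.8% of all expressed genes.

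Basement membrane and adhesive matrix genes were expressed in 22 of 27 cases, with library 3 below both others in 16, against 40.8% of all expressed genes. Besides FN1 and TGFBI, the list held CCN1 at 883, 1074 and 1056 FPKM (1004 ± 105), THBS1 (thrombospondin) at 1098, 1080.1 and 821 FPKM (999.6 ± 155) and CCN2 at 567, 645 and 579.9 FPKM. The matricellular TNC and SPARC stood at 566, 541 and 413 and 310.3, 366 and 207 FPKM. The basement membrane collagen COL4A1 stood at 100.4, 105 and 62.9 FPKM and COL4A2 at 17.7, 16.3 and 8.30 FPKM, while nidogen NID1 stood at 0.0518, 0.0161 and 0 FPKM. Of 36 collagen chains known by symbol, 15 were expressed, with COL8A1 highest at 158, 153 and 137 FPKM.

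Genes that cut or protect the matrix were expressed in 25 of 29 cases. MMP13, a collagenase, stood at 1904, 1822 and 494 FPKM (1406 ± 792), with library 3 far below. SERPINE2 stood at 626, 536 and 639 FPKM (600.3 ± 56.2), the cathepsin CTSL at 399.9, 323 and 261 FPKM and the cystatin CST3 at 481, 527 and 386 FPKM. MMP7, an epithelial matrilysin, stood at 119.9, 129 and 239 FPKM, highest in library 3. The inhibitors TIMP3 and TIMP1 stood at 208, 204 and 228 and 158, 162 and 176 FPKM, and the stromal gelatinase MMP2 at 10.1, 7.76 and 2.19 FPKM.

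Transport genes of tubal fluid were expressed in 21 of 39 cases. The sodium pump chain ATP1B1 stood at 424, 392 and 814 FPKM (543 ± 235). CFTR, the chloride channel that drives fluid secretion, stood at 26.1, 25.7 and 51.5 FPKM (34.4 ± 14.8), and the chloride loader SLC12A2 at 21.8, 22.8 and 22.8 FPKM (22.5 ± 0.581). Of the epithelial sodium channel, SCNN1G and SCNN1B stood at 50.8, 32.5 and 39.2 and 24.8, 24.3 and 22.5 FPKM, but SCNN1A at 0.899, 0.758 and 1.23 FPKM. The calcium channel TRPV4 stood at 15.3, 13.1 and 6.79 FPKM. Of 5 aquaporin genes none was expressed: AQP1 stood at 0.0903, 0.458 and 2.60 FPKM, AQP11 at 0.116, 0.570 and 2.38 FPKM and AQP9 at 0.436, 0.213 and 0 FPKM, and AQP5 and AQP8 had 0 counts. Among 300 solute carriers known by symbol, 173 were expressed, led by the nucleoside transporter SLC28A3 at 404, 395 and 471 FPKM (423 ± 41.5).

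Mucosal defence genes were expressed in 12 of 19 cases. The complement regulators CD59 and CD46 led at 461, 475 and 372 FPKM (436 ± 55.6) and 337, 362 and 315 FPKM (338 ± 23.4). The antimicrobial S100 proteins S100A9, S100A12 and S100A8 stood at 151, 136 and 144, at 148, 127 and 138 and at 64.4, 51.5 and 58 FPKM. Their counts were 5124, 3543 and 5987, 3525, 2318 and 6944, and 1617, 989 and 2237, highest in library 3 despite its lower depth. The FPKM of library 3 for these genes does not follow from its counts as in libraries 1 and 2. Its level is therefore uncertain, and by counts it lay above both others. Lysozyme (LYZ) stood at 0, 0 and 0.344 FPKM and BPIFA1 and BPIFB1 at 1.37, 1.10 and 0.186 and 0.938, 0.815 and 0.887 FPKM. Of 27 interferon-induced genes, 22 were expressed, mostly at low level apart from B2M, TAPBP and, in libraries 1 and 2, IFI6. In 15 of them library 3 was below both others, against 40.8% of all expressed genes, as for IFI6 at 175, 187 and 18.6 FPKM and MX1 at 22.7, 25.7 and 4.81 FPKM. ISG15 stood at 13.4, 11.8 and 0.575 FPKM.

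The actin and keratin cytoskeleton was expressed in 31 of 32 cases, with VIL1, the villin of brush borders, the member below the threshold at 2.34, 1.78 and 0.614 FPKM. Besides the genes already named, moesin (MSN) stood at 661, 599.8 and 546 FPKM (602 ± 57.2) and ezrin (EZR) at 276, 257 and 352 FPKM (295 ± 50.3). All 24 immediate early and AP-1 genes were expressed. IER3 stood at 805, 798 and 717 FPKM (773 ± 49.3), KLF6 at 120.5, 134 and 122 FPKM and ATF3 at 90.3, 79.1 and 116 FPKM. FOS and EGR1 were uneven, at 53.6, 128 and 109 FPKM (96.6 ± 38.5) and 46.4, 98.5 and 55.1 FPKM (66.7 ± 27.9), lowest in library 1, whereas JUN and FOSL1 were even, at 52.7, 51.5 and 53.4 and 38.4, 40.5 and 38.3 FPKM.

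Cell cycle genes were all above the threshold, 40 of 40, at modest level. The inhibitor CDKN1A (p21) was the highest at 307, 331 and 128 FPKM (256 ± 111), lowest in library 3, and the G1 cyclin CCND1 followed at 142, 137 and 151 FPKM (143 ± 7.24), even across libraries. PCNA, the sliding clamp of replication, stood at 38.9, 36.7 and 73.6 FPKM (49.7 ± 20.7). Genes of mitosis were lower, with CCNB1 at 14.5, 15.2 and 32.8 FPKM, MKI67 at 6.21, 5.25 and 15.1 FPKM and TOP2A at 5.89, 4.91 and 15.1 FPKM. These last 3 were above both others in library 3 by more than the gap between libraries 1 and 2.

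Sterol and lipid synthesis genes were likewise all expressed, 28 of 28. HMGCS1, an early enzyme of the pathway, stood at 418, 402 and 781 FPKM (534 ± 215) and CYP51A1 at 245, 237 and 371 FPKM (284 ± 75.1). SCD, which makes unsaturated fatty acids, stood at 96.5, 90.6 and 247 FPKM (145 ± 88.9). Of 24 glycolysis genes, 21 were expressed. After GAPDH came ENO1 at 631, 617 and 705 FPKM and PKM at 596, 585 and 718 FPKM. The lactate dehydrogenase chains LDHB and LDHA stood at 371, 344 and 372 and 114, 180.1 and 278 FPKM, LDHA lowest in library 1, and the glucose transporter SLC2A1 at 46.6, 38.7 and 57.3 FPKM.

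Stress and starvation genes were expressed in 35 of 39 cases. The peroxide scavenger PRDX1 led at 918, 1015 and 1201 FPKM (1045 ± 144), with the autophagy receptor SQSTM1 at 492, 542 and 499 FPKM (511 ± 26.8). ATF4, the factor of amino acid and endoplasmic reticulum stress, stood at 398, 384 and 706 FPKM (496 ± 182), highest in library 3. Of the genes named here that ATF4 is known to activate, more were highest in library 3 than lowest there. ASNS, which makes asparagine, was highest in library 3 at 24.7, 23.2 and 77.8 FPKM. So was PSAT1, of serine synthesis, at 28.3, 27.5 and 175 FPKM. PHGDH, the first enzyme of serine synthesis, was also highest there at 4.03, 4.82 and 21.1 FPKM. CHAC1 and TRIB3 were too, at 12.4, 8.26 and 29.9 and at 3.94, 4.21 and 5.45 FPKM. In contrast, DDIT3 and SESN2 were lowest in library 3 at 3.62, 4.03 and 2.61 and at 9.90, 10.1 and 7.42 FPKM. The DDIT3 model overlaps MARS and held 179, 153 and 79 counts. The chaperones HSPA8 and HSPA5 stood at 453, 450.4 and 477 and 313, 254 and 411 FPKM. Genes of the response to low oxygen or fasting were mixed. EGLN3, DDIT4 and TXNIP stood at 111, 74.3 and 83.1, at 79.3, 64 and 108 and at 52.7, 49.2 and 36.8 FPKM and NDRG1 and BNIP3 at 48, 47.9 and 29.6 and at 9.83, 8.51 and 5.21 FPKM, while CA9, ADM, PDK4 and ANKRD37 were below the threshold.

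At the other end, genes of nerve, sense organs, hair and germ cells were mostly below the threshold, many of them with some counts. None of 31 genes described as olfactory receptors was expressed, while 15 had some counts and 16 had none. None of 6 taste receptors, 3 keratin-associated proteins or 15 germline and pluripotency genes was expressed, although in the last list 12 had some counts, with GDF9, an egg growth factor, highest at 0.626, 0.901 and 0.900 FPKM. Of voltage-gated potassium channels 3 of 28 were expressed, of ionotropic GABA and glutamate receptors 2 of 25 and of protocadherins 2 of 21. The GABA receptor chains were GABRP, at 7.10, 7.20 and 28.8 FPKM and highest in library 3, and GABRE, at 6.41, 4.74 and 8.46 FPKM, both known outside the nervous system. By comparison all 37 proteasome subunits and 53 of 59 heat shock and chaperone genes were expressed.

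Among 32 genes restricted to other organs, 5 were expressed and 10 had 0 counts. The 5 were CRYAB, a small heat shock protein of lens and muscle, at 91.6, 99.7 and 182 FPKM (125 ± 50.2), the apolipoprotein APOA1 at 99.4, 74.3 and 79.3 FPKM (84.3 ± 13.3), the myelin protein MBP at 10.9, 8.88 and 14 FPKM, and STAR and CYP17A1, which act in steroid synthesis, at 2.37, 2.59 and 2.46 and 1.66, 2.80 and 1.74 FPKM. HSD3B1, a further step of that synthesis, stood at 0.284, 0.564 and 0.282 FPKM. Albumin (ALB) stood at 0, 0.00868 and 0 FPKM, and TTR, TG, CKM and NPPA were among those at 0 counts. Over all 39 lists, 906 distinct genes were matched, of which 585 were expressed and 54 had 0 counts.

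**Figure D4:**
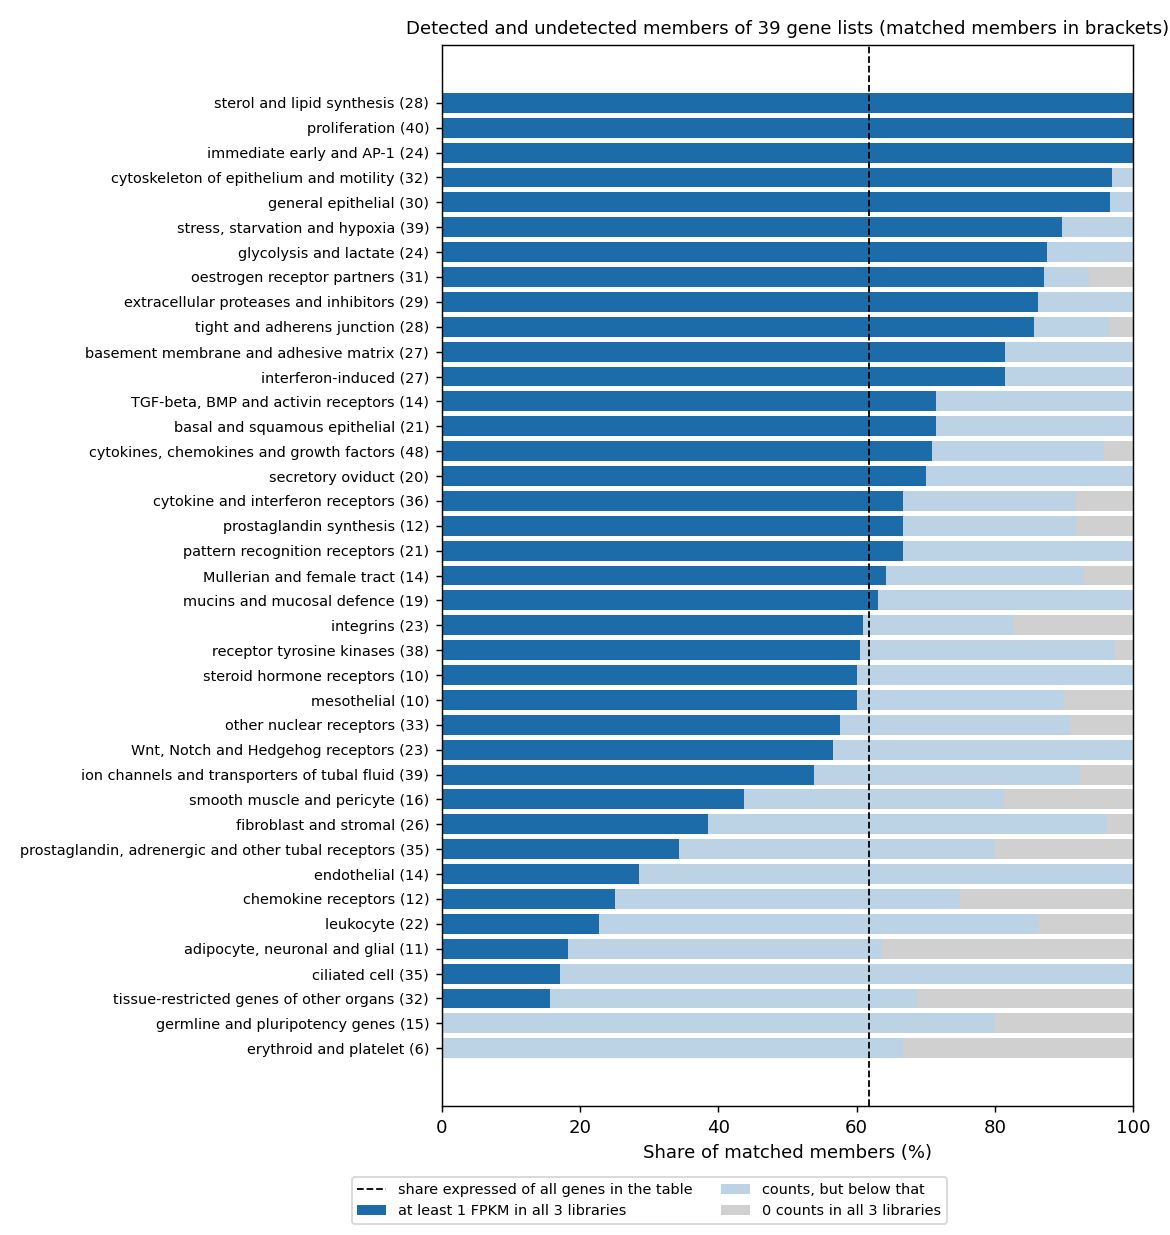
Share of matched members of each of the 39 gene lists that were expressed (at least 1 FPKM in all 3 libraries), had counts below that, or had 0 counts in all 3 libraries, as stacked bars in percent with the number matched in brackets. The dashed line marks 61.8%, the share expressed of all genes; the ciliated list lies far left of it with 6 of 35, and sterol, proliferation and immediate early genes reach the right edge.

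Library 3 differed from the other two in whole groups of genes. Over the 10978 expressed genes outside the mitochondrial, ribosomal protein and small RNA classes, it was above both others in 45.0%, below both in 40.8% and between them in 14.2%, and the median of its log2(FPKM + 1) minus the mean of libraries 1 and 2 was 0.02. Of the 40 proliferation genes it was above both in 34, with a median difference of 0.71. Of the 28 sterol and lipid genes it was above both in 27, with a median difference of 0.56. In the other direction it was below both in all 7 expressed smooth muscle genes, with a median of −0.85, and in 16 of 22 basement membrane genes, with a median of −0.41. The 6 expressed ciliated genes had a median of −0.52. The labels give nothing that sets library 3 apart, and with 1 library on that side these differences were not tested.

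Of 6818 genes with a mean of at least 10 FPKM, 383 had libraries spread over more than 1 on the log2(FPKM + 1) scale. In 155 of these library 3 was above both others and in 197 below both, which leaves 31 where it lay between. Without library 3 the number was 39, and a range over fewer libraries is smaller by construction. The largest spread with library 3 highest was that of PRD-SPRRII, a small proline-rich protein of squamous cells, at 6.77, 2.35 and 121 FPKM. Its model lies inside that of ENSOARG00000025555, which stood at 8.41, 4.17 and 94.5 FPKM, so reads may have been shared. FGFBP1, which releases fibroblast growth factors from the matrix, stood at 9.07, 10.4 and 125 FPKM, the sterol exporter ABCG1 at 10.8, 16.2 and 85.9 FPKM and MGP, an inhibitor of calcification, at 186, 249.9 and 1200.3 FPKM. A gene described as a homologue of prolactin-inducible protein (ENSOARG00000017457) stood at 5.39, 4.48 and 34.1 FPKM. The other 5 of the 10 were ENSOARG00000025555 and ENSOARG00000001084, without a description, and 3 copies described as elongation factor or ribonucleoprotein genes, whose reads may be split with other copies.

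The largest spread with library 3 lowest was that of ENSOARG00000014819, described as an epithelial chloride channel-like protein, at 353, 340.1 and 3.01 FPKM. ENSOARG00000014843, which has no description, stood at 58.3, 64.5 and 0.279 FPKM. PLA2G10, a secreted phospholipase, stood at 24.9, 40.2 and 0.802 FPKM and NREP at 52.9, 55.2 and 1.62 FPKM. A further 4 of the 10 were small RNA genes, among them a U4 small nuclear RNA (ENSOARG00000025067) at 39.6, 48.7 and 0.411 FPKM. The share of counts in small RNA genes was lower in library 3 too, as given above, and its part in these differences was not tested. The last 2 were a ribosomal protein gene and a ferritin pseudogene, of which the second was low in library 2 as well.

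**Figure D5:**
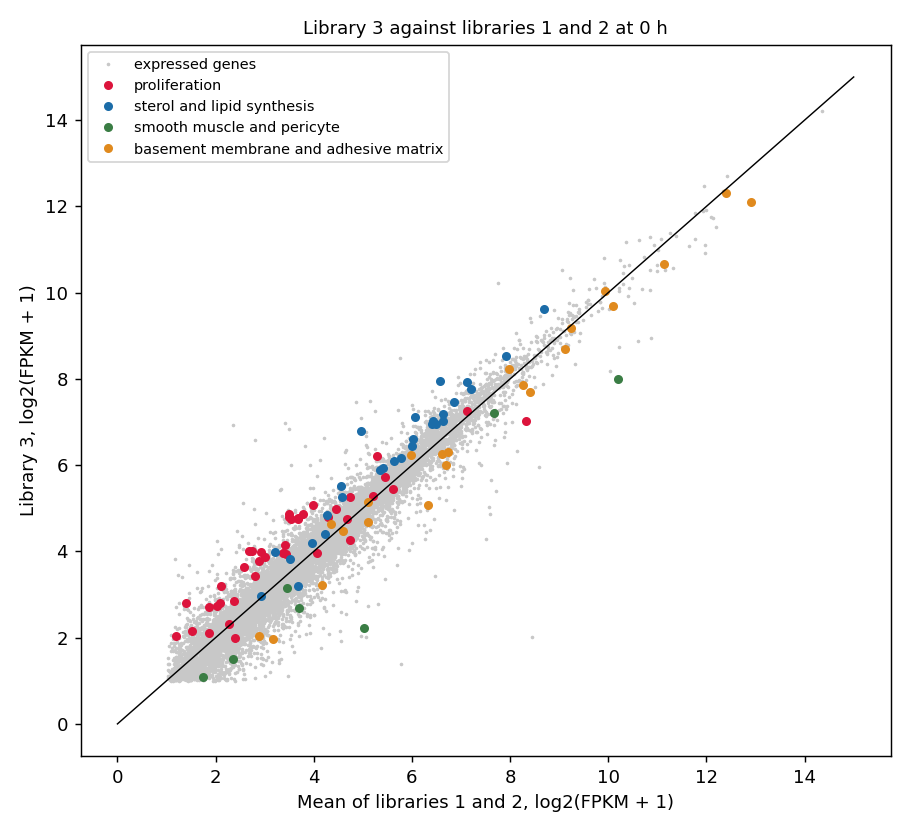
Expressed genes at 0 h, with library 3 on the vertical axis and the mean of libraries 1 and 2 on the horizontal axis, both as log2(FPKM + 1); the line marks equality and colours mark 4 lists. Proliferation and sterol genes lie mostly above the line (34 of 40 and 27 of 28 above both other libraries) and the 7 smooth muscle genes below it.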

How the data were processed

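RNA of 3 libraries of sheep oviduct epithelial cells at 0 h was analysed, of 12 in the series. The authors deposited a gene table with a count and an FPKM value per gene and library, and a transcript table with the same units and a length, per the file headers. Per the submitters' processing notes the tools were TopHat2 2.0.9 and Cufflinks, whose roles are not stated. No source used here gives the genome build or the strand setting. Another 66 columns with values of single libraries were left aside.

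Depth was 48490974 to 79387070 counts per library, and 3 counts were taken as the limit of a 0, which covers counting error only. Symbols came from the table (13552 genes) or, through the NCBI gene number in the description, from RefSeq's table for assembly ARS-UI_Ramb_v3.0 (1145), which gave no coordinates. The other 3643 appear under Ensembl identifiers, 17 of them because another row had the same symbol.

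Expressed means an FPKM of at least 1 in all 3 libraries. Levels are mean ± SD, and spread is the range of log2(FPKM + 1), counted for genes averaging 10 FPKM or more. There is 1 group, so no test was made and no p-value is given. TPM, TMM factors (0.994 to 1.01), other thresholds, the transcript table and leaving out each library were alternatives, the transcript table being chosen after seeing the data. Placing of genes by threshold was tested on simulated data. Python 3.11.15, pandas 2.3.3, numpy 2.4.6 and scipy 1.17.1 were used.

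The 39 gene lists (1111 genes, 906 matched) and the markers were chosen with earlier results of these data known. Named were the 8 markers, the 30 most abundant genes, the 4 highest members of each list with members at 0 counts and all members of short lists, the 3 highest of each family, and the 10 most spread genes with library 3 highest and lowest. A few of these are not reported here. Other members were named after their values were seen. Symbol patterns for defensins, tubulins and immunoglobulins were corrected, and olfactory and hair keratin genes by description added, after seeing the data.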

Additional observations from a re-analysis of the deposited data

How the results depend on the processing

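The number of expressed genes ran from 8279 (at least 5 FPKM) to 13099 (at least 10 counts) against 11328, and that of expressed list members from 455 to 711 against 585, all within 1.5 times. Leaving out 1 library gave 11392 to 11793 genes and 587 to 613 list members. The share of the first 100 genes was 35.9% of summed FPKM, the same by construction in TPM and after TMM scaling, and 30.1% without mitochondrially encoded genes, against 32.3% of counts. Leaving out 1 library gave 31.7% to 33.2%. Of the 30 most abundant genes, 15 were among the first 30 by mean CPM, which is not scaled to length, 28 by median FPKM and 28 to 29 with 1 library left out. Genes with libraries spread over more than 1 log2 unit numbered 1018 from a mean of 1 FPKM, against 383, and 39 to 304 with 1 library left out, 39 without library 3. Single lists moved most at 5 FPKM, where 12 of 39 changed by over 1.5 times, among them ciliated cells (2 expressed), leukocytes (3) and endothelium (1). TPM levels were 1.51 to 1.53 times the FPKM for all 169 genes followed. Leaving out 1 library moved 7 of these levels by over 1.5 times: FOXJ1, HBM and NANOS3 without library 1, CNN1, HBQ1 and PPBP without library 2, and PDPN without library 3. No paired analysis was possible because a single group was described and no test was made. Counting error limits genes of a few counts, such as FOXJ1, ESR2 and DNAH5, for which only a low level can be stated.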
